A study of Mus musculus with 2 samples.

Results

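The transcription factor p53 and 9 of its best known target genes were followed in liver and in adipose tissue of mice fed a normal or a high-fat diet. The 10 genes were Trp53, which encodes p53, and Cdkn1a, Bax, Ccng1, Mdm2, Btg2, Trp53inp1, Phlda3, Sesn1 and Bbc3. They were chosen by name, as a group built around the liver ratios of Cdkn1a and Bax, so those values are given as a description. Their 12 probes were found among 39429 probes through the transcript accession of each probe, and all 10 genes had a ratio on both arrays, out of 13637 genes measured in liver and 14312 in adipose tissue.

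The animals were male C57BL/6J WT mice. Each diet was given for 4 weeks, and RNA of 10 livers and of 10 adipose tissues was pooled by diet, per the labels. Each tissue was hybridised once to a 2-colour Agilent array, with the normal-diet pool in the green channel (Cy3) and the high-fat pool in the red channel (Cy5). The fat depot and the number of animals in each pool are not given in the sources used here. Ratios are given on the log2 scale as high fat over normal diet. There was no replicate array and no swap of the dyes, so the spread between animals is unknown, no test could be made, and diet and dye cannot be told apart. The ± after a ratio is the scanner software's error of the measurement. The software gives it for its own log ratio, not for the normalized ratio printed here. Where a gene had several spots or probes, their errors were combined as if independent, which makes the ± smaller. The size rule for a call was a 2-fold difference, which is 1 on the log2 scale.

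In unstressed cells p53 is kept scarce by Mdm2, a ubiquitin ligase that marks it for destruction and is itself a p53 target. After DNA damage or other stress p53 escapes this control and is governed mostly at the level of the protein, so the mRNA of Trp53 says little about its activity. Its targets then halt the cell cycle (Cdkn1a, Btg2), promote death through mitochondria (Bax, Bbc3), restrain growth signalling (Sesn1, Phlda3) or feed back on p53 (Mdm2, Ccng1, Trp53inp1). Cdkn1a is also controlled in liver by other inputs, among them the circadian clock, glucocorticoids and nutrient state, and Bax is expressed at a basal level in most tissues.

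p53 binds a pair of adjoining 10-base elements, called p53 decamers here. The 250 bases before annotated starts in RefSeq (GRCm38.p6) were searched for the consensus decamer and for adjoining pairs with at most 1 mismatch over 20 bases. Both patterns read the same on either strand. Of 32851 such windows, 2341 (7.13%) held a decamer and 25 (0.0761%) an adjoining pair. RefSeq windows were at hand for 9 of the 10 genes, 13 windows in all. A decamer was present in 6 of the 13, each of a different gene (Bax, Ccng1, Cdkn1a, Mdm2, Sesn1 and Trp53), and an adjoining pair in 2, of Cdkn1a and Ccng1. The E-box CACGTG, bound by clock and other factors, was in 1978 windows (6.02%), among them that of Bax and 1 of Bbc3. The windows printed here are those of the genes farthest from 0 in liver, Cdkn1a and Bax, and that of Ccng1, which holds the other pair. Capitals mark p53 decamers and adjoining pairs. Cdkn1a has 2 annotated starts, 2790 bases apart, and the pair lies 51 to 32 bases before the first of them.
Cdkn1a, first start, chr17:29090729-29090978, plus strand: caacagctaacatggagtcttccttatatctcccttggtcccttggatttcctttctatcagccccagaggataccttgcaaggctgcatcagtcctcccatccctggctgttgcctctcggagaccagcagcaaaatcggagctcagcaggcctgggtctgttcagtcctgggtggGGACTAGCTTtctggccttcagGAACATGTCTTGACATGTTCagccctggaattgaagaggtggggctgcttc
Cdkn1a, second start, chr17:29093519-29093768, plus strand: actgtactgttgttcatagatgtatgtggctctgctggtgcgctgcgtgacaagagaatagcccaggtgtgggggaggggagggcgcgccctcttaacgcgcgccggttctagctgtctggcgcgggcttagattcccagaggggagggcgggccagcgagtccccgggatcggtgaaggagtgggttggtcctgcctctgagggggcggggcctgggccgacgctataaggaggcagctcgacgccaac
Bax, chr7:45466899-45467148, minus strand: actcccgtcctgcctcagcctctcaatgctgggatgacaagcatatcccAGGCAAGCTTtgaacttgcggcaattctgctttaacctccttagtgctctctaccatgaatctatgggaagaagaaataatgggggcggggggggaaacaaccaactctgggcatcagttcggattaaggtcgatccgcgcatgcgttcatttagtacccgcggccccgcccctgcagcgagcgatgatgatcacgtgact
Ccng1, chr11:40755287-40755536, minus strand: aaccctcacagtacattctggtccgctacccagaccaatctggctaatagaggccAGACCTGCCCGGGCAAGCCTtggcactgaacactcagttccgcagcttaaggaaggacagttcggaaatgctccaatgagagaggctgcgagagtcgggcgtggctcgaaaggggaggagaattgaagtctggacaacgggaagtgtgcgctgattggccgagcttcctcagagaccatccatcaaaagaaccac
These matches describe the letters of the windows. Binding of p53 was not measured in these samples.

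Of all spots, none was saturated. Measured liver ratios lay mostly close to 0, with the middle 95% of genes between -0.50 and 0.58, whereas on the adipose array the same range ran from -1.80 to 1.45. In liver 79 genes (0.579%) were at least 2-fold lower and 67 (0.491%) at least 2-fold higher, and in adipose tissue 735 (5.14%) and 605 (4.23%). The red channel was the brighter one on both arrays before normalization. The median net signal of named probes in red was 1.67 times that in green on the liver array and 4.70 times on the adipose array. Raw signals of the high-fat and normal-diet pools are therefore read against those factors. With each array centred on its median in place of the brightness-dependent correction (loess), the median of all genes moved to 0.32 in liver and 0.69 in adipose tissue. The counts then became 28 lower and 445 higher in liver and 616 and 4207 in adipose tissue.

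In liver, 2 of the 10 genes were at least 2-fold lower in the high-fat pool, Cdkn1a and Bax, and none was higher. That lower call covered 0.579% of all measured genes, but the group was built on these values, so nothing is read from the count. The other 8 genes had ratios between -0.35 and 0.39, with 5 below 0 and 3 above and a median of -0.14, beside 0.01 for all genes. In adipose tissue none of the 10 was called in either direction (5.14% of genes were lower and 4.23% higher), and ratios ran from -0.96 for Trp53inp1 to 0.83 for Bax, with 5 genes on either side of 0.

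**Figure D1:**
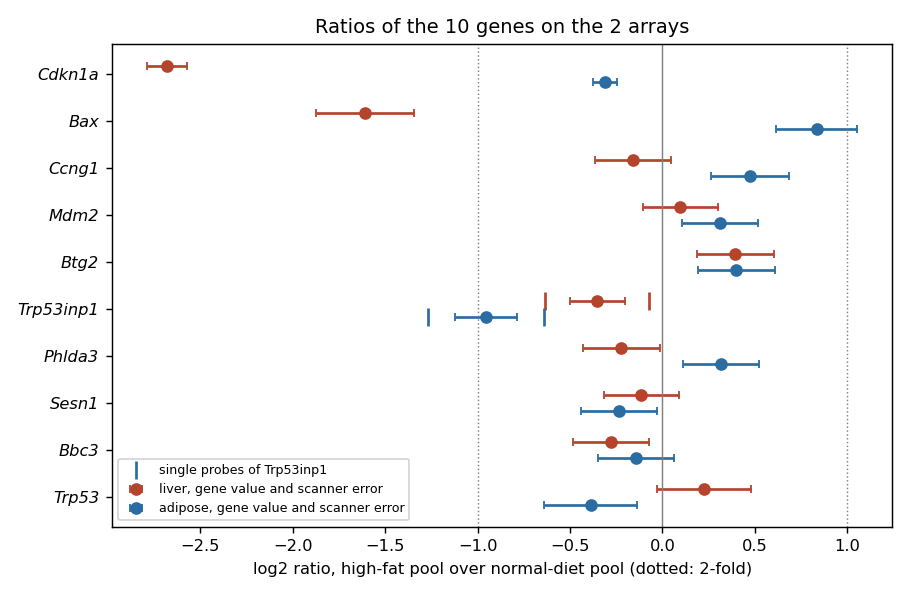
Log2 ratio, high fat over normal diet (x axis), for each of the 10 genes (y axis) on the liver array (red) and the adipose array (blue). Points are gene values, bars the scanner software's error and vertical ticks the 2 probes of Trp53inp1. Cdkn1a and Bax lie past the 2-fold line in liver, and the other genes lie between the lines.

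Cdkn1a encodes p21, an inhibitor of cyclin-dependent kinases that stops cells from entering S phase. In liver its ratio was -2.68 ± 0.11, or 6.40-fold lower in the high-fat pool. A single gene of the 13637 had a lower value, but the rank moved with the processing, to 28th lowest with local backgrounds as deposited and 31st of 20880 with no filter on dim probes. The probe for accession NM_007669 was printed on 10 spots of the array, which share 1 pair of RNA pools and measure the precision of the array only. The normal-diet signal of these spots was 1275.5 at the lowest, 1580 at the median and 1797 at the highest. The high-fat signal was 334.5, 411.75 and 460.5, although red was the brighter channel for most probes. No high-fat spot reached the dimmest normal-diet spot. The ratio of single spots ranged from -2.80 to -2.57, with an SD of 0.06, where the median SD of 274 measured probes with at least 5 spots was 0.05. The software's error of a single spot was 0.33 to 0.35, and the ± of 0.11 combines the 10 spots.

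On the adipose array the same 10 spots had a median signal of 1152.25 for the normal diet and 4899.25 for high fat. The mean high-fat signal, net of background, was 4.32 times that of the normal diet, a little under the factor of 4.70 for the typical probe. After normalization the adipose ratio was -0.31 ± 0.07, with single spots between -0.36 and -0.27. The software's error of a single spot was 0.21 there. All 10 adipose spots lay below 0 and above every liver spot. This small adipose ratio became 0.68 with median centring, which is -0.02 relative to the median of all genes.

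A second Cdkn1a probe, for accession NM_001111099, was not well above background in either channel of either array. Its signals were 57 for the normal diet and 59 for high fat in liver, and 57 and 90 in adipose tissue. Values for Cdkn1a therefore rest on the first probe alone. The tables used here do not pair the accessions with the annotated starts. Averaged with the dim probe, the liver ratio was -1.32. With local backgrounds as deposited, including those that the software marks as outliers, it was -1.11.

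**Figure D2:**
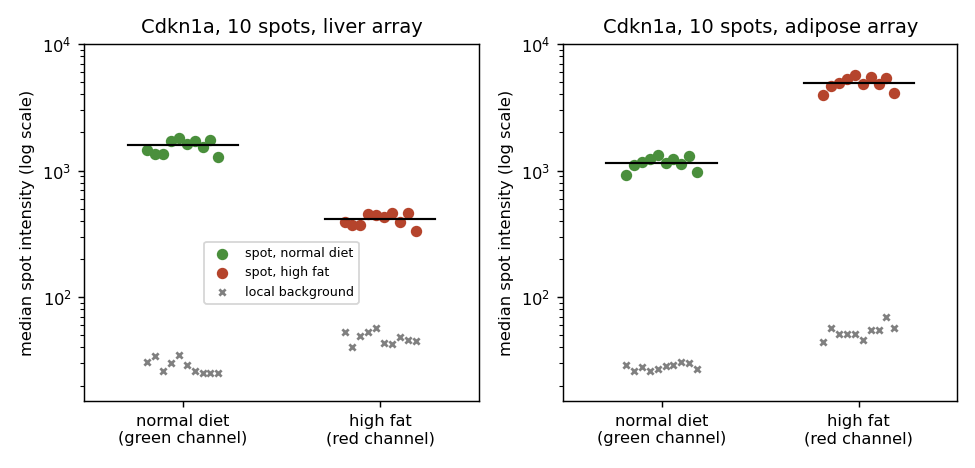
Median intensity on a log scale (y axis) of the 10 Cdkn1a spots in the normal-diet and high-fat channel of the liver array (left) and the adipose array (right), with crosses for the local background and lines for the median. In liver the high-fat spots lie between 334.5 and 460.5, below the normal-diet spots at 1275.5 to 1797. In adipose tissue the high-fat spots are the brighter ones, as red was for most probes of that array, and their normalized ratio is -0.31.

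Bax encodes an effector of apoptosis that opens pores in the outer mitochondrial membrane. In liver its 1 probe gave a signal of 922.5 over a background of 25 for the normal diet and 518 over 47 for high fat. The net signal was thus lower in the channel that was brighter for most probes, and the ratio was -1.61 ± 0.27, or 3.05-fold lower. On the adipose array the signals were 460.5 and 4193.5, a net factor of 9.63 where 4.70 was typical, and the ratio was 0.83 ± 0.22. Bax was thus lower in the high-fat pool in liver and higher, under 2-fold, in adipose tissue. The liver call ended with local backgrounds as deposited (-0.59), and the adipose value passed 2-fold with median centring (1.77, or 1.08 relative to the median of all genes).

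Bbc3, which encodes the BH3-only protein PUMA that activates Bax, was close to 0 on both arrays. Its signals were 916 and 1342 in liver, with a ratio of -0.28 ± 0.21, and 341 and 1456 in adipose tissue, with a ratio of -0.14 ± 0.21. Neither ratio exceeded 2 times its error.

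Trp53 itself was dim. Its probe gave 85 over a background of 28.5 for the normal diet and 130 over 43 for high fat in liver, and 100 over 27 and 197 over 47 in adipose tissue. The ratios were 0.22 ± 0.26 and -0.39 ± 0.25, both within 2 errors of 0. Mdm2, the ubiquitin ligase that limits p53 and the most direct feedback target, was measured at signals of 2970 and 5926 in liver and 1386 and 9350 in adipose tissue. Its ratios were 0.10 ± 0.20 and 0.31 ± 0.21, so the 2 diets differed by less than 2 errors in either tissue.

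Ccng1 encodes cyclin G1, which recruits a phosphatase to Mdm2. Its liver signals were 362.5 and 552.5, with a ratio of -0.16 ± 0.21. Its adipose signals were 461 and 3248, with a ratio of 0.47 ± 0.21. The liver ratio was within its error of 0, and the adipose ratio exceeded 2 times its error. Btg2, an antiproliferative protein that promotes mRNA decay, had nearly the same ratio on both arrays, 0.39 ± 0.21 in liver (signals of 589.5 and 1371.5) and 0.40 ± 0.21 in adipose tissue (878 and 6128). With local backgrounds as deposited its liver ratio was 0.15.

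Trp53inp1, a nuclear protein that promotes p53 phosphorylation and autophagy, was the gene farthest below 0 in adipose tissue, at -0.96 ± 0.17. Both of its probes, which share accession NM_021897, were lower in the high-fat adipose pool, at -1.27 for the brighter probe (signals of 1555.5 and 3412) and -0.64 for the dimmer one (146 and 303). In liver they were at -0.63 (3926 and 4716) and -0.07 (716 and 1208), for a gene value of -0.35 ± 0.15. The brighter probe was the lower one on both arrays. The probes were 0.56 apart in liver and 0.62 in adipose tissue, where genes with 2 measured probes had a median gap of 0.13 and 0.20. A gap this wide was reached by 2.99% of 2846 such genes in liver and 10.8% of 2862 in adipose tissue. The gene passed 2-fold in adipose tissue when the brighter probe was taken alone (-1.27), with an offset of 10 (-1.08) and with the log ratio of the scanner software (-1.15).

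Phlda3, a membrane-bound repressor of AKT, had signals of 273.5 and 386 in liver and 6347.5 and 46630 in adipose tissue, the widest gap between the arrays among the 10. Its ratios were small, at -0.22 ± 0.21 and 0.32 ± 0.21. Sesn1, a sestrin that restrains mTORC1, had signals of 650.5 and 1060 in liver and 2158 and 10081 in adipose tissue, with ratios of -0.11 ± 0.20 and -0.24 ± 0.21. In neither tissue did either gene exceed 2 times its error.

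A ratio over 2 times the scanner error was reached by 3 of the 10 genes in liver (Cdkn1a, Bax and Trp53inp1), where 10.1% of all genes did, and by 4 in adipose tissue (Cdkn1a, Bax, Ccng1 and Trp53inp1), where 31.3% did. The group was built on the liver ratios of Cdkn1a and Bax, so nothing is read from these counts. The errors of Cdkn1a, combined over 10 spots, and of Trp53inp1, over 2 probes, are also smaller than those of genes with 1 spot. With median centring, 5 of the small liver ratios changed sign (Ccng1, Trp53inp1, Phlda3, Sesn1 and Bbc3), and so did those of Cdkn1a, Sesn1 and Bbc3 in adipose tissue. That setting shifted all genes upward. Relative to the median of all genes the 5 liver ratios stayed below 0, between -0.24 and -0.03, as did Cdkn1a (-0.02) and Bbc3 (-0.0081) in adipose tissue. Sesn1 in adipose tissue was then at 0.12, and Trp53 in liver at -0.09.

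**Figure D3:**
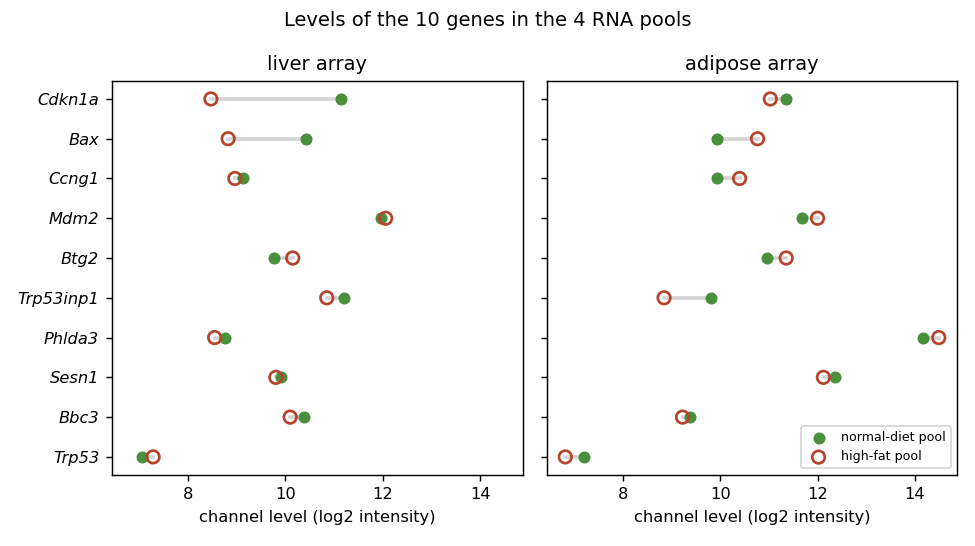
Channel level in log2 intensity (x axis) of each of the 10 genes (y axis) in the normal-diet pool (filled green) and the high-fat pool (open red) on the liver array (left) and the adipose array (right). The widest gaps between the diets are those of Cdkn1a (11.15 to 8.47) and Bax (10.43 to 8.82) in liver.

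Levels in the 4 pools were compared on a scale that gives both arrays the same distribution of brightness, and since each tissue has an array of its own, tissue and array cannot be told apart. On the normal diet Cdkn1a had a log2 level of 11.15 in liver and 11.34 in adipose tissue, a small difference. On high fat it was 8.47 in liver and 11.03 in adipose tissue. Bax was at 10.43 in liver and 9.93 in adipose tissue on the normal diet and at 8.82 and 10.77 on high fat. Its liver pool was thus the brighter one on the normal diet and the dimmer one on high fat.

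Among the other genes, 3 were at least 2-fold brighter on the adipose array on the normal diet, Phlda3 (8.77 in liver and 14.17 in adipose tissue), Sesn1 (9.92 and 12.36) and Btg2 (9.76 and 10.96). The difference of 5.41 for Phlda3 was exceeded by 0.434% of the 12685 genes measured on both arrays. Trp53inp1 (11.20 and 9.80) and Bbc3 (10.38 and 9.37) were brighter on the liver array. Mdm2 (11.96 and 11.69), Trp53 (7.06 and 7.21) and Ccng1 (9.12 and 9.93) lay within 2-fold. The order of brightness between the tissues was the same on high fat for all of these except Trp53 (7.28 and 6.82), which changed sides at signals near the background.

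The ratios of high fat over normal diet were set side by side in the tissues as the adipose ratio minus the liver ratio. This was 2.44 ± 0.34 for Bax and 2.37 ± 0.13 for Cdkn1a, where the error combines the scanner errors of both arrays. The adipose ratio was at least 2-fold above the liver ratio for these 2 of the 10 genes, where 3.77% of all genes measured on both arrays did this, and for none was it 2-fold below, where 4.45% did. The liver values that make up these differences are the ones the group was built on. The remaining differences ran from -0.61 for Trp53 to 0.63 for Ccng1. Of the 67 genes that were called lower in liver and measured on both arrays, 26 had an adipose ratio above 0, Bax among them.

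**Figure D4:**
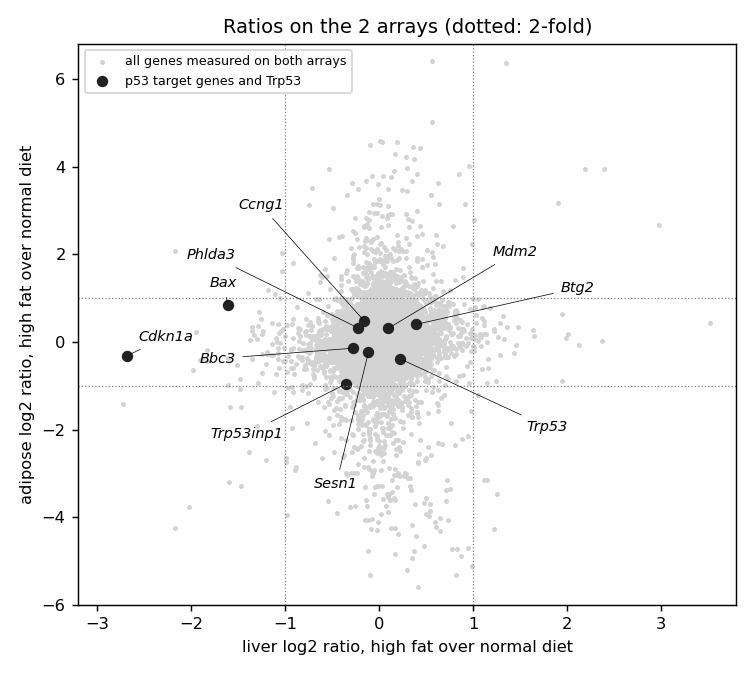
Adipose log2 ratio (y axis) against liver log2 ratio (x axis) of the 12685 genes measured on both arrays (grey), with the 10 genes in black and 2-fold as dotted lines. Cdkn1a (-2.68, -0.31) and Bax (-1.61, 0.83) lie at the left edge, and the other 8 genes lie inside the cloud.

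The measured genes nearest to Cdkn1a in the pair of ratios were Bcl6 (-1.98 in liver and -0.65 in adipose tissue), Gm10639 (-1.90 and -0.41) and Gsta2 (-1.88 and -0.40). Likeness was the straight-line distance over those 2 ratios, 0.77 to 0.80 for these genes among 12684 compared. Bcl6 encodes a transcriptional repressor and Gsta2 a glutathione transferase. Nearest to Bax were Marco (-1.28 and 0.69), a scavenger receptor of macrophages, Asap2 (-1.26 and 0.53) and Ces2a (-1.18 and 1.18), a carboxylesterase, at distances of 0.36 to 0.55. With only 2 ratios per gene this is a description of position.

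Genes of the wider pathway were described with the loess-normalized ratios only. A list of 40 further p53 targets, written with earlier results of these arrays known, had 34 measured members in liver, 1 of them at least 2-fold lower (0.579% of all genes) and none higher (0.491%), and a median of -0.03 beside 0.01 for all genes. The lower one was Ddit4 (-1.61 ± 0.26), an inhibitor of mTORC1 that also responds to hypoxia and glucocorticoids. The next largest ratios were those of Gadd45a (0.83), a growth arrest protein, and Ak1 (-0.74), an adenylate kinase.

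In adipose tissue 37 of these targets were measured, 3 were at least 2-fold higher (4.23% of all genes) and none lower (5.14%), and the median was 0.00 beside -0.01 for all genes. The higher ones were Pmaip1 (2.29), the BH3-only protein NOXA, Perp (2.11), a desmosomal protein of epithelia, and Dgka (1.07), a diacylglycerol kinase. Markers of the small intestine moved with them on that array. Of 13 such markers 12 were at least 2-fold higher in the high-fat adipose pool, with a median of 5.22, and their summed log2 level was 13.72 on the normal diet and 19.38 on high fat. All 13 were above background in both channels, and their part in these ratios or in that of Bax was not tested.

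The relatives of Cdkn1a are given as a description. The group was built around its liver ratio, so nothing is read from their smaller ratios there. Of 7 inhibitors of cyclin-dependent kinases, 6 were measured in liver, while Cdkn2a was not above background. Those besides Cdkn1a ran from -0.29 (Cdkn2c) to 0.29 (Cdkn1b). None of them was called, where 0.579% of all genes were lower and 0.491% higher. In adipose tissue all 7 were measured, 1 was at least 2-fold higher (4.23% of all genes), Cdkn2b (1.69), and the next largest were Cdkn1c (-0.70) and Cdkn2c (-0.66).

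In the BCL2 family, 1 of 17 measured members was called lower in liver (0.579% of all genes) and 1 higher (0.491%), the BH3-only gene Bmf (1.14), with a list median of 0.01. The lower one was Bax itself, on which the group was built. Bok, another pore-forming member, was at -0.70, whereas Bak1, the effector closest to Bax in function, was at 0.39. In adipose tissue 19 were measured, with 1 called higher (4.23% of all genes), Pmaip1, 1 called lower (5.14%), Bcl2a1c (-1.40), and Bak1 at 0.92, near the 0.83 of Bax. The Bcl2a1 genes are close copies of each other, so the value of Bcl2a1c may include transcripts of others.

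**Figure D5:**
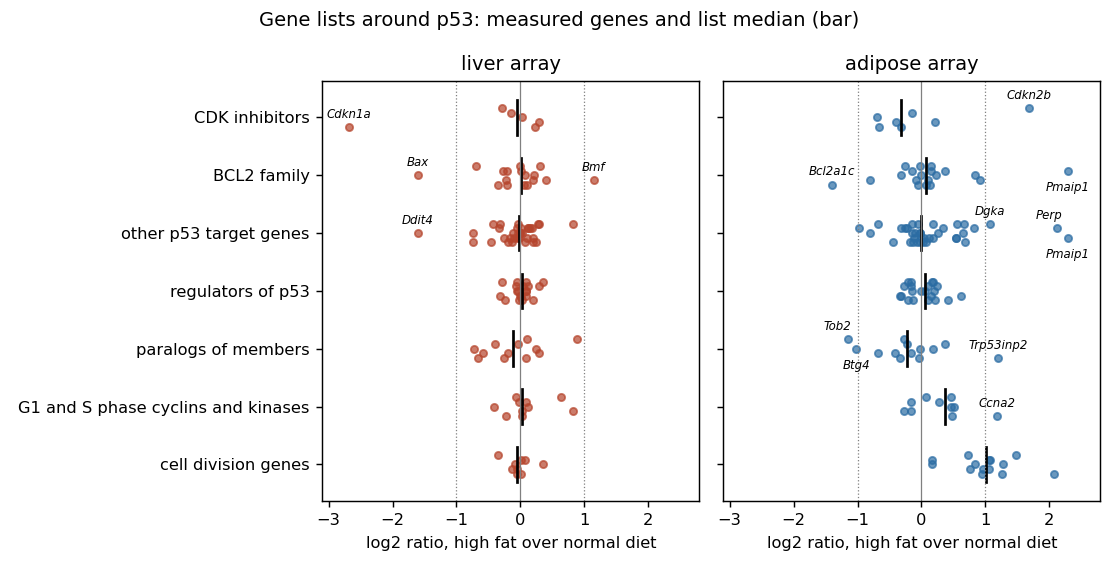
Log2 ratios (x axis) of the measured genes in 7 lists (y axis) on the liver array (left) and the adipose array (right), with a black bar for the list median and dotted lines at 2-fold. In liver the list medians lie between -0.11 and 0.03, and Cdkn1a, Bax, Ddit4 and Bmf are the genes past 2-fold. In adipose tissue the cell division genes have the highest median, 1.01.

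The measured regulators of p53 stayed within 2-fold on both arrays. Of 23 listed, 20 were measured in liver between -0.31 (Kat5) and 0.35 (Ppp1r13b), with a median of 0.02, and 21 in adipose tissue between -0.33 (Sirt1) and 0.62 (Hipk2), with a median of 0.05. Mdm4, the partner of Mdm2, was at -0.04 and -0.28. The damage kinases Atm and Atr were at 0.02 and 0.09 in liver and -0.13 and 0.15 in adipose tissue, and Chek1 and Chek2 were not above background in liver. Paralogs of the 10 genes were within 2-fold in liver as well, led by Phlda1 (0.88), Ccng2 (-0.72) and Btg1 (-0.67) among 12 measured, with a median of -0.11. In adipose tissue, of 13 measured, Tob2 (-1.15) and Btg4 (-1.02) were lower and Trp53inp2 (1.19) higher, where 5.14% and 4.23% of all genes were.

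Genes that p21 acts on or restrains were measured too. Among 10 measured G1 and S phase genes none was called in liver, where 0.579% of all genes were lower and 0.491% higher. The largest were Ccnd1 (0.82) and Ccne1 (0.63), cyclins of G1, with E2f1 at -0.41 and Pcna at -0.03. In adipose tissue 10 were measured and 1 was at least 2-fold higher (4.23% of all genes), Ccna2 (1.19). Next came Ccnd2 (0.51) and Cdk2 (0.47), and the list median was 0.36. Of 20 cell division genes only 9 were above background in both liver channels, with ratios from -0.36 (Cdk1) to 0.36 (Plk1) and a median of -0.05. In adipose tissue 14 were measured, 7 of them at least 2-fold higher (4.23% of all genes), led by Mki67 (2.07), Ccnb2 (1.47) and Plk1 (1.27), with a median of 1.01. The adipose ratio of Cdkn1a on the same array was -0.31. The small intestine markers given above were higher in the same pool (12 of 13, median 5.22), and their part in the ratios of the cell division genes was not tested. Bulk RNA cannot tell more dividing cells from more of these transcripts in each cell.

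Some clock and glucocorticoid-responsive genes lay far from 0 in the same liver pools, in both directions, and the list median was -0.05. Of 12 measured, 3 were at least 2-fold lower (0.579% of all genes), Zbtb16 (-2.73), Arntl (-1.95) and Tsc22d3 (-1.29), and 3 higher (0.491%), led by Dbp (3.52). Those not called in liver were Per2 (0.99), Klf9 (-0.53), Clock (-0.39), Fkbp5 (-0.16), Nr3c1 (0.12) and Per1 (0.07). Zbtb16 is the gene with the lower liver ratio than Cdkn1a. In adipose tissue Fkbp5 (-1.44) and Zbtb16 (-1.41) were lower (5.14% of all genes), none was higher (4.23%), and Arntl was at 0.22. The part of clock phase or glucocorticoids in the Cdkn1a ratio was not tested.

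The labelled tissues were checked against markers. On the normal diet all 16 markers of hepatocytes had higher levels on the liver array, and all 10 adipocyte markers measured on both were brighter on the adipose array. Skeletal muscle markers were lower in the high-fat liver pool, with 8 of 10 called (0.579% of all genes) and a median of -1.45, and a summed log2 level of 15.78 on the normal diet and 14.32 on high fat. On the adipose array 13 of the 16 hepatocyte genes were lower on high fat (5.14% of all genes were), with a median of -4.04 and a summed level of 17.996 and 14.886. Apoa1, an apolipoprotein, was the 1 called higher (2.08). Of 8 measured muscle markers 5 were lower (median -1.48, summed level 14.27 and 12.47). So were 9 of 10 markers of the exocrine pancreas (-1.92, summed level 14.17 and 12.10) and 6 of 6 measured of testis and epididymis (-3.48, summed level 16.40 and 12.99). The part of such RNA in the ratios of the 10 genes was not tested.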

How the data were processed

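Both arrays were read as deposited. The authors' scanner files hold the median spot intensity and local background intensity of each channel, without normalization, and a log10 ratio with its error, per the file headers, which name Agilent Feature Extraction 11.5.1.1, protocol GE2_1105_Oct12 and mm9. Version 8.5.1.1 is given instead in the submitters' processing notes. Background was corrected in limma 3.58.1 (R 4.3.3) by normexp with an offset of 50, after local backgrounds marked as outliers by the software had been set to the median of the array and channel, and each array was normalized by loess without control spots. Channel levels were scaled by Aquantile. Probes well above background in both channels were kept, named through RefSeq accessions, and averaged per gene. Errors were combined as if spots were independent. The steps were also run on simulated data with a weaker dye bias than the red excess of the adipose array. That run therefore does not cover the adipose setting.

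The 10 genes and all lists were chosen with earlier results of these data known. All 10 genes are named, with up to 3 of the largest ratios of each pathway list and the 3 genes nearest to Cdkn1a and to Bax. Genes given beyond that were chosen after their values were seen. With 1 array per tissue, their number limits the precision, and there was no test.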

Additional observations from a re-analysis of the deposited data

Results flagged for a closer look

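The diet ratio of Bax pointed in opposite directions on the 2 arrays, at -1.61 in liver and 0.83 in adipose tissue, a difference of 2.44 on the log2 scale. With 1 array per tissue this difference was not tested. The liver ratio of Bax is also a value that the group was built on. It was -0.59 with local backgrounds as deposited.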

How the results depend on the processing

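Each ratio was recomputed under 8 other settings and 1 chosen after seeing the data, in which a running median along brightness was subtracted. The counts were also made with a ratio over 2 times the scanner error. A value was taken as moved when it changed by more than its scanner error. The liver ratio of Cdkn1a stayed at least 2-fold lower in all of them, at -2.95 with the software's log ratio, -2.84 with an offset of 10, -2.28 with median centring, -1.32 with no filter on dim probes, which adds the probe at background, and -1.11 with local backgrounds as deposited. That of Bax was -1.22 with median centring and -0.59 with local backgrounds as deposited. The latter setting left 1 of the 10 genes called lower in liver, beside 35 of all 13637 genes. The cause was not tested. In adipose tissue median centring gave 0.68 for Cdkn1a and 1.77 for Bax, where the median of all genes was 0.69. With that setting 5 of the 10 genes were at least 2-fold higher, as were 4207 of all 14312 genes. Cdkn1a in adipose tissue was at -0.091 with no filter on dim probes. In the same tissue 1 gene (Trp53inp1) was called lower with the software's log ratio, an offset of 10 or the brightest probe. Those settings called 1230, 974 and 773 of all 14312 genes lower. Settings that only change which probes are kept could not move a gene with a single probe. Of 144 values for the other 8 genes, which include such fixed values, 126 moved by less than the scanner error and 137 kept their sign. The 7 others were all with median centring, and 6 of them kept their sign relative to the median of all genes. No paired analysis was possible because each tissue has 1 array. Trp53 had signals of 85 to 197, near the background.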
